A study of Mus musculus with 12 samples.

Results

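The control Th1 libraries of this study were described here for their own sake, as a baseline of which genes these cells transcribed and in what amounts. They are 3 of the 12 libraries of the series (control 1, control 2 and control 3), chosen by their sample titles alone and not by any measured value. The cells were mouse T cells of the C57BL/6 strain with a wild-type genotype, kept in Th1 conditions for 5 days and sorted before RNA was taken. The other groups of the series, labelled Slc25a1 KO, Slc25a11 KO, empty vector and Sdhc cKO, were not compared with them. The labels do not name the sort gate, how the cells were stimulated, or whether the 3 libraries came from separate mice, so the spread given here is the spread between these 3 libraries.

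T helper 1 cells are the CD4+ effector cells of the response to intracellular pathogens. Interleukin 12, through STAT4, and interferon gamma act on the factor T-bet (Tbx21), which opens the interferon gamma gene (Ifng) and holds back the programmes of the other helper lineages. Activated T cells also take up much glucose and release most of its carbon as lactate, while their mitochondria export citrate and reducing equivalents. Many steps of these programmes are served by several paralogous genes, and the choice among them is part of what defines a cell's state.

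The libraries held 20815668, 20137111 and 18272998 counted reads, of which 88.0%, 87.1% and 86.4% fell on 14743 protein-coding genes of the nuclear genome. Levels are given as TPM, reads per base of a gene's merged exons, scaled to sum to 1000000 over those genes, so that genes can be compared with each other inside a library. Control 1 stood apart from the other libraries. Over 7730 genes of at least 10 TPM with a read in each library, the Pearson correlation of log2 TPM across genes was 0.980 between controls 1 and 2, 0.985 between controls 1 and 3, and 0.995 between controls 2 and 3; genes are not independent replicates. Y-linked transcripts summed to 0.048, 131 and 55.1 in 1000000 reads and Xist to 507, 126 and 319, so the libraries are not repeats of the same cells. Values are therefore given for each library in the order control 1, control 2, control 3.

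The mRNA pool was concentrated in few genes. In the mean of the 3 libraries, 10732 genes reached 1 TPM, 7731 reached 10 TPM, 1501 reached 100 TPM and 142 reached 1000 TPM. The number at 1 TPM or more was 10766, 10726 and 10687 per library. The 100 most abundant genes held 39.2%, 37.8% and 39.4% of all TPM, and the 10 most abundant held 11.2%, 11.1% and 11.3%. The median over all 14743 genes was 11.7 TPM.

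Eef1a1, the elongation factor that brings tRNA to the ribosome, was the most abundant gene at 25730, 26922 and 25045 TPM. Actb, cytoplasmic beta actin, followed at 12645, 14147 and 14025 TPM. The 25 most abundant genes were otherwise ribosomal proteins (among them Rplp1, Rps15, Rpl32, Rplp0, Rpl4, Rpl17, Rps4x, Rpl36, Rpl8, Rpl13a, Rpsa), histones (Hist1h4f, Hist1h4k, Hist1h4h, Hist1h2bn, Hist1h2bb, Hist1h4d, Hist1h1c), and Eef2, B2m, Tmsb4x and Tpt1. B2m, the light chain of MHC class I, stood at 8675, 8425 and 8289 TPM. Ribosomal protein genes taken by symbol, 84 in all, held 22.4%, 20.7% and 21.7% of TPM. The 63 genes with replication-dependent histone symbols held 10.7% in the mean, with control 2 lowest and control 3 highest at 11.6%. Many of these genes have near-identical copies: 59.6% of the 50-base words of Eef1a1 and 28.5% of those of Hist1h4k occur in no other annotated gene. Their single values are therefore uncertain. The sums were not recomputed for reads shared between copies and are uncertain as well.

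**Figure D1:**
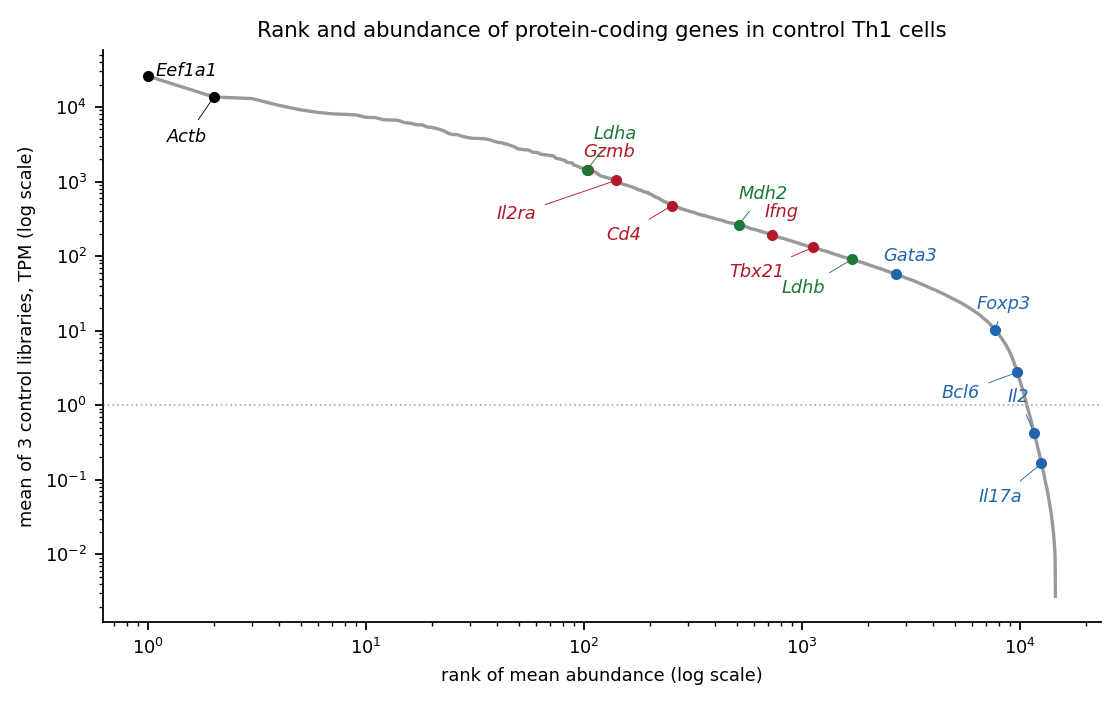
Rank of mean abundance (x axis, log scale) against mean TPM of the 3 control libraries (y axis, log scale) for the nuclear protein-coding genes with a read, with a dotted line at 1 TPM. Red marks Th1 and helper genes, blue genes of other programmes, green metabolic enzymes and black the top genes; Gzmb at 1440 TPM sits beside Ldha at 1448 TPM, while Il2 and Il17a lie under the line.

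The libraries carried the transcripts of CD4+ T cells. All 13 T cell identity genes with a value lay at or above 72.2 TPM, with a median of 316 TPM against 11.7 TPM over all genes. Cd4, the MHC class II co-receptor, was at 462, 481 and 480 TPM, rank 252 of all genes. Thy1 reached 986, 919 and 1044 TPM and Cd3d, a chain of the T cell receptor complex, 746, 676 and 741 TPM. On the same scale the constant regions Trac and Trbc2, which are outside the set of genes that sums to 1000000, stood at 987 and 1756 TPM in the mean.

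Most markers of other cells were low but not all absent. Cd8a, the alpha chain of CD8, was at 4.83, 6.99 and 3.74 TPM, and Cd8b1 at 24.3, 28.8 and 24.0 TPM. The 7 B cell genes with a value summed to 8.04 TPM, the 7 NK cell genes to 16.2 TPM, the 7 myeloid genes to 11.8 TPM and the 8 dendritic cell genes to 41.5 TPM in the mean. Ighm, the constant region of the IgM heavy chain and so also a B cell gene, is outside the protein-coding set and stood far above that B cell sum, at 154, 188 and 165 TPM on the same scale (1703, 1952 and 1600 reads, with only unique 50-base words). In the dendritic cell list the class II genes H2-Eb1 (14.5, 15.4 and 12.7 TPM) and Cd74 (8.74, 20.8 and 15.6 TPM) made up most of the sum, whereas Flt3 and Itgax stayed at or below 0.0756 TPM in each library. In bulk RNA, fewer cells of a type and less RNA per cell cannot be told apart. The part of other cells in the results below was not tested.

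Of 23 genes linked to the Th1 lineage, 11 reached 100 TPM in the mean, 19 reached 10 TPM and 22 reached 1 TPM. Over all 14743 genes these counts were 1501, 7731 and 10732. For 12 regulatory T cell genes they were 4, 9 and 12, and for 11 Th2 genes with a value 2, 7 and 9. For 12 Th17 genes they were 0, 2 and 6, and for 9 follicular helper genes 1, 3 and 8. The median of the Th1 genes was 99.7 TPM. The lowest were Hlx, Ifngr2, Havcr2 and Twist1, the last at 0.0770 TPM in the mean. Gzmb, the serine protease of cytotoxic granules, was at 1545, 1137 and 1637 TPM, lowest in control 2 and rank 104 in the mean. Il2ra, the high-affinity chain of the interleukin 2 receptor and also a marker of regulatory T cells, was at 932, 1094 and 1082 TPM. Ifng was at 191, 209 and 183 TPM, a spread of 13.3 TPM (SD, n = 3) around 194 TPM, and ranked 728. Tbx21 was at 123, 146 and 125 TPM and ranked 1122. Of the Ifng exon bases, 25.9% overlap another annotated gene, and whether strand was used in the counting is not given in the sources used here.

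Among the lineage factors Tbx21, Gata3, Foxp3 and Bcl6, Tbx21 was the most abundant. Stat6, linked to Th2 cells, was above Tbx21 in each library, at 144, 158 and 138 TPM. Gata3, the factor of Th2 cells, was at 58.8, 58.2 and 53.6 TPM, below Tbx21 in each library. Within a library the Tbx21 over Gata3 log2 ratio was 1.06, 1.33 and 1.22 (mean 1.20, SD 0.13), a 2.31-fold excess that was 1.86-fold when each gene's principal transcript was used for its length. Foxp3, the factor of regulatory T cells, was at 11.4, 10.6 and 8.87 TPM. Bcl6, the factor of follicular helper cells, was at 3.19, 2.98 and 2.15 TPM. The order Tbx21, Gata3, Foxp3, Bcl6 was the same in all 3 libraries with no overlap between neighbours.

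Partners of T-bet were present as well. Stat4 was at 150, 136 and 126 TPM and Runx3, which acts with T-bet at Ifng, at 106, 99.1 and 94.1 TPM. Runx3 was 3.93-fold above Runx1 (log2 ratio 1.97, SD 0.06, n = 3), and 2.47-fold by principal-transcript lengths. Eomes, the other T-box factor of effector T cells, was the variable one: 4.68, 16.3 and 13.1 TPM, lowest in control 1. Tbx21 was 26.2-fold above it in control 1 but 8.96-fold in control 2. The Th2 factor Maf went the other way, at 42.5, 17.9 and 15.8 TPM. Hlx, a homeobox gene active in Th1 cells, was likewise highest in control 1, at 17.0, 5.66 and 5.03 TPM.

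**Figure D2:**
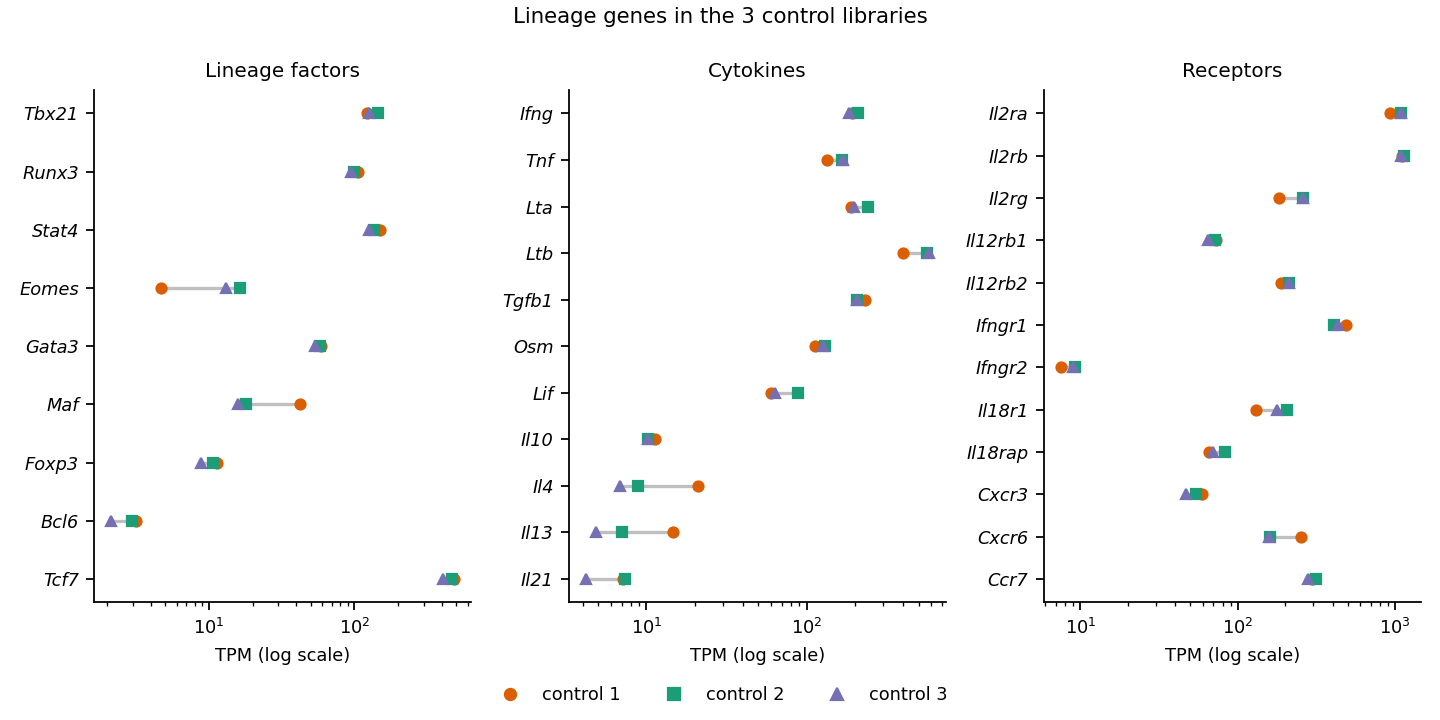
TPM (x axes, log scale) of lineage factors, cytokines and receptors in control 1 (circles), control 2 (squares) and control 3 (triangles), with grey bars from the lowest to the highest library. Most genes span less than the gap to their lineage rivals, and Eomes, Maf, Il4 and Il13 show the widest bars, with control 1 at one end.

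Of 37 cytokine genes with a value, 26 reached 1 TPM and 19 reached 10 TPM. These are close to the shares of all genes, 10732 and 7731 of 14743. Mif, macrophage migration inhibitory factor, was highest at 788, 1498 and 1230 TPM, but only 49.1% of its 50-base words are unique to it. Ltb, the membrane anchor of lymphotoxin, followed at 402, 563 and 581 TPM, then Tgfb1 at 232, 206 and 207 TPM and Lta, soluble lymphotoxin, at 190, 241 and 198 TPM. Ifng thus had place 5 among the cytokines, and its range overlapped those of Lta and Tgfb1. Tnf was at 134, 166 and 170 TPM, below Ifng in each library. Tnfsf8 was next at 133 TPM in the mean, then Osm at 113, 131 and 127 TPM, Cd40lg at 82.0 TPM and Lif at 70.8 TPM in the mean.

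Apart from Tgfb1, also linked to regulatory T cells, cytokines of other helper lineages were lower. A pair of them differed between the libraries. Il4 was at 21.0, 8.88 and 6.81 TPM (151, 60 and 43 reads) and Il13 at 14.6, 7.08 and 4.84 TPM, both highest in control 1. The regulatory cytokine Il10 was at 11.3, 10.3 and 10.2 TPM and Il21 at 7.17, 7.32 and 4.21 TPM. Il2, the growth factor that newly stimulated T cells make, had 2, 4 and 2 reads. Il17a had 0, 0 and 3 reads, and the limit that 3 reads set in the shallowest library is 0.498 TPM. The Th2 list as a whole had a median deviation of 0.33 on the log2 scale in control 1, 0.03 in control 2 and -0.27 in control 3 over its 7 members of at least 10 TPM. Over all genes of that level the medians were 0.01, 0.03 and -0.04.

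Cytotoxic granule genes were dominated by Gzmb. It held 92.6% (SD 0.126, n = 3) of the summed TPM of 9 granzymes with a value. Gzma was at 43.3, 32.9 and 60.5 TPM, Gzmc at 34.9, 33.7 and 45.9 TPM and Gzmk at 40.1, 20.8 and 18.5 TPM. Nkg7, a membrane protein of the granules, was at 536, 532 and 519 TPM and Srgn, the proteoglycan that packs granzymes, at 321, 381 and 382 TPM. Prf1, the pore-forming perforin, was low beside them at 18.9, 13.1 and 16.2 TPM, rank 6564. Chemokine genes were also low: Xcl1 (7.83, 27.1 and 13.8 TPM) and Ccl5 (23.6, 6.05 and 6.28 TPM) were the only 2 of 12 above 10 TPM in the mean, and control 1 was lowest for the former and highest for the latter. That count and order rest on merged exons: Cklf was at 8.73 TPM by 6124 bases but at 51.7 TPM by its principal transcript of 667 bases, above both. Of all 14743 genes, 7731 reached 10 TPM by merged exons.

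Receptor chains of one complex were far from equal. Ifngr1, the ligand-binding chain of the interferon gamma receptor, was at 490, 407 and 432 TPM. Ifngr2, the signalling chain without which the receptor does not act, was at 7.52, 9.26 and 8.93 TPM. The Ifngr1 over Ifngr2 ratio was 65.1-fold, 44.0-fold and 48.4-fold by library. Il12rb2, the inducible chain that marks Th1 cells, was at 189, 210 and 210 TPM against 72.7, 71.3 and 64.8 TPM for Il12rb1, a 2.92-fold excess, although 40.0% of the exon bases of Il12rb2 overlap another gene. Il18r1 was at 130, 206 and 177 TPM, above its partner Il18rap at 65.2, 82.4 and 70.0 TPM. The interleukin 2 receptor had Il2rb at 1107, 1132 and 1082 TPM, level with Il2ra in control 3, and the shared chain Il2rg at 182, 259 and 259 TPM. Il2rb stood first of the 3 chains by merged exons, while principal-transcript lengths put Il2ra first (866 against 731 TPM).

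Among 22 chemokine and trafficking receptors, Ccr7, which guides cells into lymph nodes, was first at 297, 313 and 279 TPM. Cxcr6 was at 251, 159 and 157 TPM and Cxcr3, a direct T-bet target, at 59.6, 54.1 and 46.9 TPM. Ccr4, more often linked to Th2 cells, was above Cxcr3 in each library, at 82.5, 58.8 and 52.5 TPM. Of 28 costimulatory and checkpoint genes, 25 reached 10 TPM, against 7731 of all 14743 genes. Tnfrsf4, also known as OX40, led at 390, 398 and 401 TPM, followed by Tnfrsf18, Cd28, Lag3 and Icos at 279, 272, 209 and 208 TPM in the mean. Lag3 was higher in control 1, at 270 TPM against 174 and 185 TPM. Pdcd1 was lower than these at 35.5, 36.4 and 32.2 TPM, and Havcr2 lower still at 5.84, 4.21 and 4.64 TPM.

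Of 126 transcription factors with a value, 115 reached 1 TPM and 99 reached 10 TPM, with a median of 40.5 TPM. Of all 14743 genes, 10732 and 7731 reached these levels. Ybx1 (803, 923 and 866 TPM), Ets1 (541, 496 and 501 TPM) and Jund (511, 421 and 452 TPM) were the most abundant. Tcf7, which keeps T cells able to renew, was at 485, 467 and 406 TPM. It held 79.0% of the Tcf7 and Lef1 sum by merged exons and 61.3% by principal-transcript lengths. Hif1a, the oxygen-sensitive factor that drives glycolytic genes, was at 441, 422 and 419 TPM and held 99.2% of its family, with Epas1 at 0.523%. Myc was at 208, 269 and 222 TPM and held 96.9% of its family. Stat5b held 75.5% of the STAT5 pair by merged exons and 64.0% by principal-transcript lengths. Irf4 led the 8 IRF genes by merged exons with 30.1% of their sum, followed by Irf1 with 22.7%, but Irf4 dropped to 16.8% with principal-transcript lengths and was then not first.

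Signalling paralogues showed clear choices. Lck, the kinase bound to CD4, was at 691, 626 and 620 TPM against 255, 271 and 256 TPM for Fyn, and these held 70.3% and 28.4% of 8 Src family kinases. Zap70 held 99.6% of the Zap70 and Syk sum. Pik3cd, the leukocyte catalytic subunit of PI3K, was at 340, 325 and 319 TPM and held 80.1% of its family. Itgal, the alpha chain of LFA-1, held 99.4% of the 4 integrin chains that pair with beta 2. The calcineurin subunit Ppp3cc held 70.1% of 3 genes by merged exons and 54.4% by principal transcripts. Families without a leader were AKT (Akt1 48.3%, Akt2 42.5%), NFAT (Nfatc1 38.7%, Nfatc2 32.9%) and NF-kB (Rela 34.0%, Nfkb1 31.5%).

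Glycolysis was served at most steps by 1 isoenzyme. All 19 genes of glucose uptake, glycolysis and lactate export reached 10 TPM, against 7731 of all 14743 genes. The median of the 19 was 137 TPM, against 11.7 TPM over all genes. Aldoa was the most abundant at 1317, 2502 and 2119 TPM and held 96.0% of 3 aldolases. Gapdh was at 1000, 1786 and 1436 TPM, Pkm at 861, 1755 and 1395 TPM and Pgk1 at 572, 1029 and 899 TPM. Pgam1 held 96.0% of the phosphoglycerate mutases. Eno1 held 90.7% of the enolases and was 6.12-fold to 19.0-fold above Eno3 (26.3-fold by principal-transcript lengths), though 74.0% of its 50-base words are unique and reads of its copy Gm5506, of which 14.8% are unique, cannot be told apart in part. The 3 least abundant were minor paralogues of their steps: Pfkm (45.6, 40.1 and 42.4 TPM), Slc2a3 (30.3, 60.8 and 51.4 TPM) and Hk2 (42.6, 72.5 and 54.1 TPM).

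Lactate dehydrogenase was one-sided as well, with 93.8% of its sum in Ldha. Ldha, the muscle-type subunit that favours lactate formation, was at 944, 1880 and 1518 TPM, lowest in control 1. Ldhb, the heart-type subunit, was at 81.4, 101 and 88.1 TPM, and the testis form Ldhc had 0 reads in each library, which allows up to 0.369 TPM. The Ldha over Ldhb log2 ratio was 3.54, 4.22 and 4.11 (mean 3.95, SD 0.37), or 11.6-fold to 18.6-fold, and was 24.1-fold with principal-transcript lengths. The gap was many times the spread between libraries.

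The 250 bases before the RefSeq start of these genes are shown because Ldha and its paralogue differ in them in matches to ACGTG. This is a form of a motif of the pathway's known regulators. Sequences are from GRCm38.p6, 5′ to 3′ on the gene's strand. Capitals mark ACGTG, a form of the core of the hypoxia response element, on either strand (CACGT on the other). Where the matches join as CACGTG they are also an E-box, the motif of MYC. The other form of the core, GCGTG, was not marked or counted, and the Ldhb window holds it. The window of Ldha is chr7:46845554-46845803 on the plus strand, that of Ldhb chr6:142507958-142508207 on the minus strand, that of Pgk1 chrX:106186850-106187099 on the plus strand and that of Tpi1 chr6:124814159-124814408 on the minus strand.
Ldha: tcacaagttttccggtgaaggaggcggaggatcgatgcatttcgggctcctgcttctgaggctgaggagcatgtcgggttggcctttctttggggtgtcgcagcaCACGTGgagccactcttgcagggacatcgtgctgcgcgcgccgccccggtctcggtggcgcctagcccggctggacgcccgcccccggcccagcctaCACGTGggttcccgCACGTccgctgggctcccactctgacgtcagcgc
Ldhb: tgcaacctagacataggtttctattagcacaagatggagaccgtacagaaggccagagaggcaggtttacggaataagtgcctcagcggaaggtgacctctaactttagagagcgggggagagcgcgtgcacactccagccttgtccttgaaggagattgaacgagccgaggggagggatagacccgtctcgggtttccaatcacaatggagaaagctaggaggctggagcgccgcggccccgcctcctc
Pgk1: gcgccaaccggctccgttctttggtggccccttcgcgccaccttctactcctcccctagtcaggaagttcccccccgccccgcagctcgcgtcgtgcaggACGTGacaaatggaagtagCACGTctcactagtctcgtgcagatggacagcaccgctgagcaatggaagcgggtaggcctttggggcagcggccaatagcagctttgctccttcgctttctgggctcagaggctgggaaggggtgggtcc
Tpi1: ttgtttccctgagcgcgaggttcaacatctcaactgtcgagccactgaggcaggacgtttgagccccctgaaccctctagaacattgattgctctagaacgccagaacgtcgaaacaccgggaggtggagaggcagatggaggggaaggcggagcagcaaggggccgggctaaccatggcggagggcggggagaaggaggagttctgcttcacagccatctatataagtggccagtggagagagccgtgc
Ldha held 3 marked stretches, Pgk1 held 2, and Ldhb and Tpi1 held 0. The RefSeq start of Ldha lies 4329 bases from the GENCODE start of the gene, that of Tpi1 138 bases and those of Ldhb and Pgk1 0 bases. Of 18 glycolysis genes with a RefSeq promoter, 8 (44.4%) held ACGTG on either strand. The same held for 2387 of 11512 nuclear protein-coding genes (20.7%) and 23.5% of those at 10 TPM or more. Of the 5 glycolysis genes with a 2-fold range and a promoter, 1 (20%) held ACGTG. A match is only a match of letters, and Tpi1, with 0, was among the genes that differed most between the libraries.

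Hexokinase and glucose transporter choice was less one-sided by merged exons. Hk1 was at 101, 126 and 107 TPM and above Hk2 in each library, 1.74-fold to 2.36-fold, and 4.11-fold by principal-transcript lengths. Slc2a1, the main transporter of activated T cells, was at 95.9, 155 and 137 TPM, 2.78-fold above Slc2a3. For the latter ratio principal-transcript lengths gave 1.63-fold. Pfkp (111, 159 and 141 TPM) held 54.8% of phosphofructokinase 1, Pfkl 27.5% and Pfkm the rest. Among the lactate exporters Slc16a1 was at 110 TPM in the mean (SD 10.2, n = 3) and Slc16a3 at 44.3, 103 and 84.2 TPM. Pdk1, a pyruvate dehydrogenase kinase, was at 59.5, 84.2 and 67.6 TPM, 1.38-fold above Pdk3. Its paralogue Pdk4 was nearly absent with a mean of 0.0347 TPM.

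**Figure D3:**
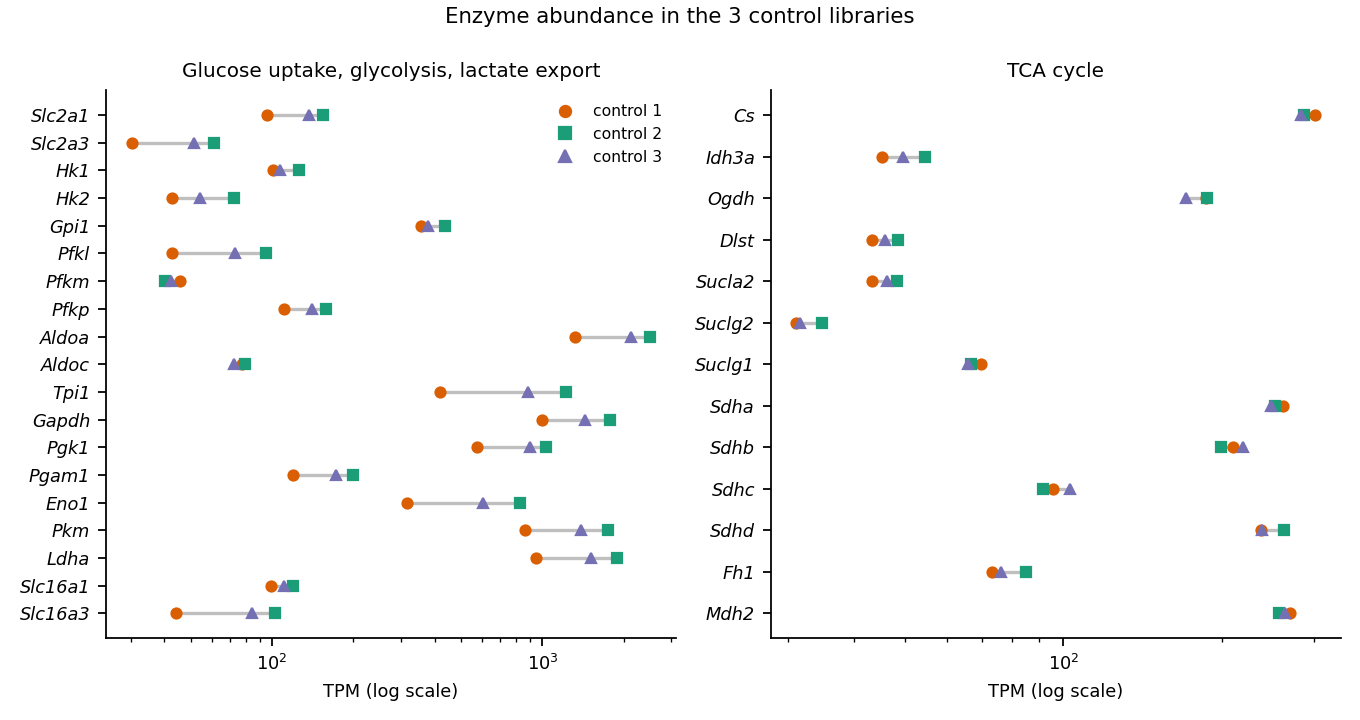
TPM (x axes, log scale) of 19 genes of glucose uptake, glycolysis and lactate export and of 13 TCA cycle genes in control 1 (circles), control 2 (squares) and control 3 (triangles); grey bars join the lowest and the highest library. Glycolytic genes are lowest in control 1, as Tpi1 at 419, 1228 and 885 TPM shows, except Pfkm and Aldoc, while the libraries lie close together for the TCA cycle.

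The TCA cycle genes were less abundant and more even. All 18 reached 10 TPM, against 7731 of all 14743 genes, with Suclg2 lowest at 32.5 TPM in the mean. The median of the 18 was 106 TPM. Cs, citrate synthase, was at 301, 286 and 282 TPM. Idh2 was 3.40-fold above the cytosolic Idh1, and Sucla2, of the ATP-forming ligase, 1.41-fold above Suclg2 of the GTP-forming one. The summed TPM of glycolysis was 2.51, 4.72 and 3.93 times that of the TCA cycle. Complex II, which is part of both the cycle and the respiratory chain, had Sdha at 262, 252 and 248 TPM, Sdhd at 238, 262 and 239 TPM, Sdhb at 210, 199 and 220 TPM and Sdhc lowest at 95.4, 91.4 and 103 TPM.

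The shuttles that carry citrate, malate and aspartate across the mitochondrial membrane held both near-level and unequal pairs. Slc25a1, the citrate carrier, was at 177, 131 and 145 TPM and Slc25a11, the oxoglutarate and malate carrier, at 135, 137 and 133 TPM. Their ranges overlapped, with a log2 ratio of 0.39, -0.05 and 0.12. Mdh1, the cytosolic malate dehydrogenase, was at 255, 303 and 275 TPM and the mitochondrial Mdh2 at 270, 257 and 264 TPM. The Mdh1 over Mdh2 log2 ratio was -0.09, 0.24 and 0.06 (mean 0.07, SD 0.16), and it turned to -0.94 with principal-transcript lengths, since merged exons make Mdh2 long (3562 against 1456 bases), so neither can be named the more abundant. Got2 was above Got1 in each library, 1.05-fold to 1.29-fold, and 1.76-fold by principal-transcript lengths. Among the aspartate and glutamate carriers, Slc25a12 was 4.16-fold above Slc25a13. Acly, which makes cytosolic acetyl-CoA from citrate, was at 332, 330 and 343 TPM, 48.9-fold above Acss2, which makes it from acetate; principal-transcript lengths gave 16.9-fold.

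Genes of the respiratory chain had a median highest over lowest ratio of 1.20 in complex III, above the 1.16 of all genes, and below 1.16 in the other 4 complexes. Of 35 complex I genes, 23 were lowest in control 1, against 2790 of 7730 genes overall. All 9 nuclear complex III, 11 complex IV and 16 complex V genes reached 10 TPM, as did 35 of 36 of complex I. Of all 14743 genes, 7731 reached that level. Cox8a was the highest of complex IV at 1224, 1099 and 1057 TPM, and Atp5o, Atp5b and Atp5a1 the highest of complex V at 854, 819 and 809 TPM in the mean, although only 10.2% of the 50-base words of Atp5o are unique. The ubiquitous forms were chosen throughout: Cox4i1 held 99.95% of its pair, Cox6a1 98.5% and Cox8a 99.94%. Slc25a5, the ADP and ATP exchanger of dividing cells, was 5.06-fold above Slc25a4. The lowest values of the lists rest on length: Atp5l was at 12.4 TPM by merged exons of 6443 bases and at 95.2 TPM by its principal transcript of 544 bases.

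Lipid and amino acid genes also showed single leaders. Scd2, a desaturase of fatty acid synthesis, was at 1074, 763 and 871 TPM and held 99.2% of its family, with Scd1 at 10.4, 4.60 and 7.03 TPM. All 20 cholesterol synthesis genes reached 10 TPM, against 7731 of all 14743 genes. Hmgcs1 led the 20 (456, 303 and 350 TPM). Slc7a5 and Slc3a2, the chains of the large neutral amino acid transporter, were at 313, 428 and 427 TPM and at 181, 274 and 272 TPM. Shmt2, which starts mitochondrial one-carbon metabolism, was 8.43-fold above the cytosolic Shmt1, and Mthfd2 held 99.7% of its pair. Rrm2, the S-phase subunit of ribonucleotide reductase, held 98.4% of its pair at 515, 546 and 506 TPM, and the cell cycle genes Top2a and Pcna were at 748 and 567 TPM in the mean. Of the immunoproteasome subunits, Psmb8 was 1.94-fold above its constitutive partner Psmb5 by merged exons and Psmb10 1.29-fold above Psmb7, while Psmb9 and Psmb6 overlapped. Each of these 3 directions turned under at least 1 other length.

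Over 105 families with at least 2 members valued, 1 member held 90% or more of the summed TPM in 30, and 99% or more in 10. In 65 families the leader held between 50% and 90%, and in 10 it held less. The leader was the same gene in all 3 libraries in 100 families, and under all 5 ways of treating length in 85. Of 25 pairs of paralogues or partner chains, 20 kept their direction in every library and under every length. For 4 the direction turned with the length, Mdh1 over Mdh2 and the 3 proteasome pairs, and for 3 it differed between libraries, Mdh1 over Mdh2, Slc25a1 over Slc25a11 and Psmb9 over Psmb6.

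**Figure D4:**
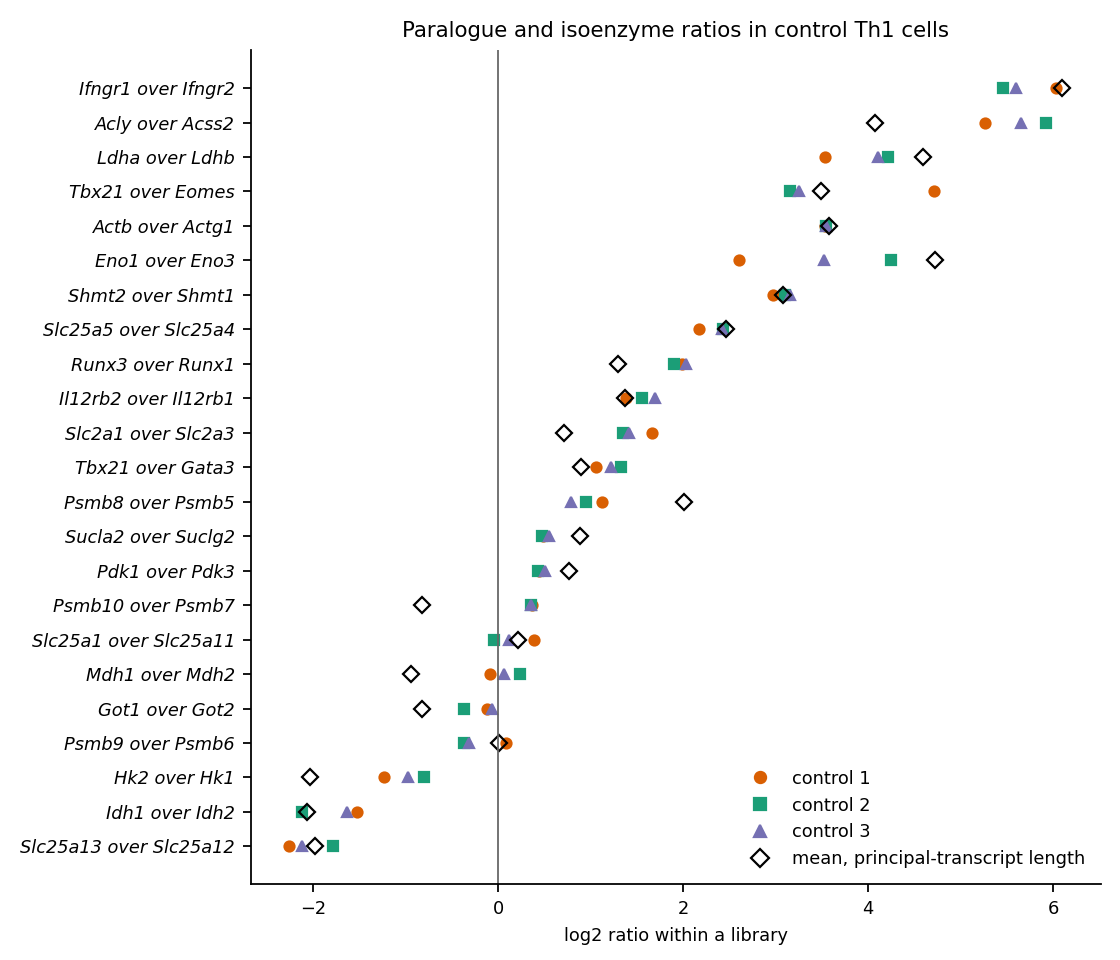
Log2 ratio (x axis) of paralogue or partner pairs within control 1 (circles), control 2 (squares) and control 3 (triangles), with the mean ratio under principal-transcript lengths as open diamonds. The line marks a ratio of 1. Ifngr1 over Ifngr2 at 5.69 and Slc25a13 over Slc25a12 at -2.06 lie at the ends. For Mdh1 over Mdh2, Psmb10 over Psmb7 and Psmb9 over Psmb6, the diamond lies across the line from most or all libraries. That of Psmb9 over Psmb6 is at 0.01.

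Some of these levels differed between the libraries by more than a baseline description should pass over. Of 7731 genes of at least 10 TPM, 84 (1.09%) spanned 2-fold or more, and 10 did without control 1. Control 1 was the lowest library in 41 of the 84 and the highest in 39. Among 7730 genes of at least 10 TPM with a read in each library, it was lowest in 2790 and highest in 3218. The widest spans were those of the Y-linked genes Ddx3y (0, 690 and 309 reads) and Eif2s3y (1, 915 and 339 reads), then Gm4737 (77.3, 5.03 and 4.83 TPM, with 6.31% of its 50-base words unique), Ak4, Ccr2, Gm5506, Ccl5, C330021F23Rik, Bnip3, Ly6k, Eomes, Xcl1, Tmem180, Serpinb1a and Tnfrsf9. Ak4, a mitochondrial adenylate kinase, was at 5.84, 31.1 and 18.2 TPM. Bnip3, which marks mitochondria for removal, was at 26.5, 98.9 and 64.9 TPM, with 52.8% of its 50-base words unique. Tnfrsf9, the activation receptor 4-1BB, was at 39.1, 123 and 83.0 TPM. The chemokine receptor Ccr2 went the other way at 63.4, 15.2 and 16.0 TPM, and so did Serpinb1a.

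Glycolysis was the most spread over the libraries of the pathway lists, with a median highest over lowest ratio of 1.79 against 1.16 over all genes. Of its 19 genes, 6 spanned 2-fold or more against 1.09% of all genes of that level: Tpi1 at 419, 1228 and 885 TPM, Eno1 at 317, 829 and 601 TPM, Slc16a3, Pfkl at 42.8, 94.7 and 73.2 TPM, Pkm and Slc2a3. In 17 of 19, control 1 was lowest, control 3 between and control 2 highest, an order found in 28.5% of all genes. The list's median log2 deviation from the mean of the libraries was -0.45, 0.38 and 0.11, and it held 0.660%, 1.27% and 1.03% of TPM. Amino acid uptake (12 of 14) and nucleotide synthesis (12 of 19) often had the same order, and serine and one-carbon genes lay low in control 1 alone (median deviation -0.30, 0.15 and 0.13).

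Cholesterol synthesis showed the opposite order. In 17 of 20 genes control 2 was lowest, control 3 between and control 1 highest, against 14.6% of all genes, with medians of 0.17, -0.16 and 0.00. The cytosolic ribosome followed the same order in 25 of 45 genes with smaller deviations of 0.05, -0.06 and 0.00. The TCA cycle (0.00, -0.01 and -0.02), complex II (0.00, -0.04 and 0.02) and the shuttles (0.00, -0.02 and -0.02) were nearly level. The Y-linked sums of 0.048, 131 and 55.1 in 1000000 reads had the order of the glycolytic genes, and the Xist values of 507, 126 and 319 that of the cholesterol genes; their part in these differences was not tested.

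**Figure D5:**
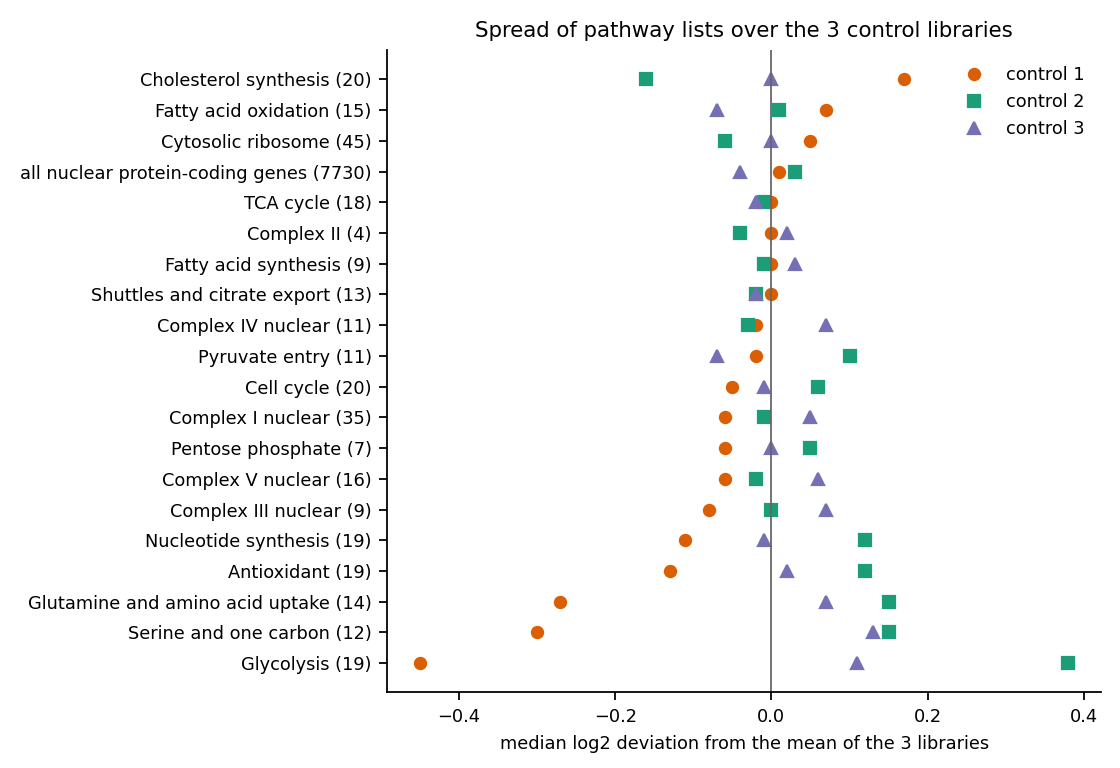
Median log2 deviation of each library from the mean of the 3 (x axis) for the genes of at least 10 TPM in each pathway list, with their number in brackets, in control 1 (circles), control 2 (squares) and control 3 (triangles). Glycolysis spans -0.45 to 0.38, cholesterol synthesis runs the other way from -0.16 to 0.17, and the TCA cycle sits at 0.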

How the data were processed

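Libraries of the 3 control samples came from a TruSeq RNA kit, as the labels' protocols say. The submitters' processing notes name STAR, HTSeq, DESeq2 and the build mm10, without versions; the annotation and the use of strand are not stated in them. Each deposited signal value is a read count divided by a factor particular to its library, and division by the lowest non-zero value returned whole reads for 100% of entries (tolerance 0.01). The table's 3 other sample columns were not used. Of 18929 symbols, 17613 matched GENCODE M21 (GRCm38) directly and 912 by synonym, and 404 had no match. Reads were divided by merged exon length and scaled to TPM over nuclear protein-coding genes with pandas 2.3.3 and numpy 2.4.6. Ribosomal-type reads (Gm26917 and Gm26924) took 7.96% to 9.10% of reads.

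With 1 group no test was run, and a two-sided exact sign-flip test on 3 values cannot go below p = 0.25. Limits from 3 reads cover counting error only. Median deviations of lists are over members of at least 10 TPM with a read in each library. The calculation was tested on simulated reads. Lists, families and pairs were chosen with earlier results of these data known. Named genes are the 25 most abundant, the 10 most abundant of each role list, lineage markers, the 3 most and 3 least abundant of each pathway, family and pair members, and the 15 genes of widest range. Tpi1, Cxcr2, the sex-linked genes and those outside the protein-coding set were named after their values were seen. Alternatives covered gene length, thresholds, a pseudocount, the denominator and each library left out. Some items are not reported here.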

Additional observations from a re-analysis of the deposited data

How the results depend on the processing

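Every alternative to 7 summary values was computed, 58 in all. Counts of genes at 1 TPM (9005 to 11425) and of families led by 1 member (23 to 45) stayed within 1.5 times the reported value under each. The share of the 100 most abundant genes was 22.3% with no length division, 53% with all genes in the denominator and 37.1% without histone genes, the last chosen after seeing the data. Tbx21 over Gata3 had a log2 ratio of 0.90 by longest and 0.90 by principal transcript and 0.53 with no length. Ldha over Ldhb gave 4.55, 4.59 and 5.03 in that order. Mdh1 over Mdh2 turned to -0.80, -0.94 and -0.40; principal-transcript lengths and unique words were also chosen after seeing the data. With each library left out in turn it ran from -0.01 (without control 2) to 0.15. The count of genes with a 2-fold range ran from 10 (without control 1) to 47 (without control 2) and 69 (without control 3), and was 511 with a filter of 1 TPM and 18 with 50 TPM. No paired analysis was possible because only 1 group was used. Depth limits statements on genes of few reads, such as Il2 and Il17a.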

Other observations

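Some genes more often linked to other lineages were not low. Gata1, the factor of erythroid and mast cells, was at 44.2, 48.0 and 51.9 TPM (631, 645 and 651 reads), close to Gata3 at 58.8, 58.2 and 53.6 TPM and 45.7% of the GATA sum, with all of its 50-base words unique and no overlap with another gene. Genes that Gata1 is known to act on in erythroid cells were low: Alas2 was at 0.995, 1.89 and 0.728 TPM and Klf1 at 1.23, 0.356 and 0.635 TPM. Hbb-bs, a beta globin, was at 0, 18.2 and 0.759 TPM, high in control 2 alone. Gata2 had 2, 0 and 6 reads. Zfpm1, which encodes the GATA partner FOG1, was at 73.8, 64.4 and 56.4 TPM. Klf1 and Zfpm1 were looked up after the value of Gata1 was seen.

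Cxcr1 and Cxcr2, known as interleukin 8 receptors of neutrophils, were at 25.5, 25.5 and 23.5 TPM and at 13.5, 19.2 and 9.76 TPM. Ly6g, the neutrophil marker, was at 1.27, 1.54 and 2.48 TPM, and Mpo, myeloperoxidase, at or below 0.114 TPM.

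Noncoding and mitochondrial genes stand outside the protein-coding scale. Rn7sk, a small RNA made by RNA polymerase III without a poly(A) tail, had 235791, 254103 and 247593 reads, and Rpph1, the RNA of RNase P, 125556, 132612 and 124319. Of 13 mitochondrial mRNA genes, 5 have at most 6 unique 50-base words, and none of these had more than 88 reads in a library; mt-Atp8, with only unique words, also had just 2, 0 and 4. The value of mt-Co1 was 114594, 89677 and 93938 reads, or 74.7%, 71.0% and 70.9% of mitochondrial mRNA reads, so these counts give no usable ratio of mitochondrial to nuclear subunits of a complex. Gas5, a noncoding host gene of small nucleolar RNAs, was at 307 TPM and Malat1 at 412 TPM in the mean on the same scale.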
